A study of Mus musculus with 12 samples.

Results

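The genes described here are the molecular chaperones of the cytosol and the mitochondria, with the heat-shock factors that control many of them. They were taken by gene symbol from a list of 37 names, by a rule that uses no measured value, and all 37 were found among the 32544 rows of the count table. The list itself was drawn up with earlier results of these data known. All 37 also passed the filter on low counts, which left 14279 genes to test. Chaperones of the endoplasmic reticulum (ER) are not among the 37 and serve below as a comparison.

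Bulk RNA was sequenced from 3T3 cells, a mouse fibroblast line, with 3 libraries in each of 4 groups. Untreated cells formed the reference, and the other cells received extracellular vesicles (EVs), small membrane-bound particles that cells release, for 24 h. The donors of the EVs were cells of the human breast cancer line MDA-MB-468, in a control form (shCon), a form with CRIPTO knocked down (shCr) or a CRIPTO-overexpressing form (CrOE). CRIPTO sits on the cell surface and takes part in signalling by Nodal and related ligands. It was altered in the cells that made the EVs, and the RNA of those cells was not analysed here, so these libraries hold no direct check of the knockdown or the overexpression. The labels do not say how much EV material was given, or whether the 3 libraries of a group came from separate cultures, so the p-values measure only the spread between these libraries. The columns of the CrOE libraries carry only the protein's name and were matched to that group by elimination. The fibroblast check genes were present as the label says: 8 of 8 fibroblast markers were detected, while the sum of 7 epithelial markers stayed between 0.966 and 3.36 CPM (counts scaled to a fixed total per library) and Epcam was at 0 in every library. Sums of 4 endothelial markers reached at most 2.56 CPM, and 5 blood and immune markers summed to 29.5 to 87.8 CPM. The fibroblast markers summed to between 15579 and 16629 CPM in untreated cells, between 17340 and 17509 with shCon EVs, between 12206 and 13746 with shCr EVs and between 4765 and 4938 with CrOE EVs. That fall moves with the CrOE results below, and its part in them was not tested. In bulk RNA, fewer cells of a type and less RNA per cell cannot be told apart. Library totals ran from 25960054 to 37774020 estimated counts. The library shCr replicate 1 stood apart: the chi-square per degree of freedom of its counts over genes was 42.0 and 60.6 against the other shCr libraries, which differed from each other by 9.91, and so calls of shCr EVs against untreated cells or shCon EVs that change without it are given beside the genes.

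HSP70 proteins bind exposed stretches of unfolded protein in cycles driven by ATP. J-domain proteins deliver the clients and start ATP hydrolysis, and HSP110 proteins exchange the nucleotide. HSP90 and its co-chaperones act later, on proteins close to their final fold, while the CCT ring encloses actin, tubulin and other clients in a chamber. Small heat-shock proteins hold unfolding proteins without ATP, and mitochondria have an HSP70, an HSP60 chamber and an HSP90 of their own. In stressed cells the heat-shock factor HSF1 forms trimers that bind heat-shock elements, runs of alternating GAA and TTC units, in front of many of these genes.

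Promoter sequences are shown first because the members with matches to units of this element did not move as one group. RefSeq promoter windows of 300 bases (250 before and 50 after the transcription start, build GRCm38.p6) were found for 30 of the 37 members. No window was found for Cryab, Hspa8, Hspa9, Hsp90aa1, Hsp90ab1, Cct4 and Hsf1. The members with the largest fall (Cryab) and the largest rise (Hspa9) after CrOE EVs against untreated cells are thus outside the search. The motifs GAANNTTC and TTCNNGAA, each of which reads the same on both strands, were searched for with overlaps allowed. One or both occurred in the windows of 15 of the 30 members (50%), against 17% of the 27025 gene symbols with a window. Runs of 3 alternating units, in which each unit is 2 bases from the next, occurred in 5 of the 30, Chordc1, Dnajb6, Hspd1, Hspe1 and Hsph1, against 0.662% of all symbols. Such a match is a description of the letters and not evidence of binding. Only exact units at this spacing were counted, so the lack of a match or run does not show that an element is absent. The sequences below run 5′ to 3′ on the gene's strand, with the GAA and TTC units of the matches in capitals. Hspa1a lies at chr17:34972227-34972286 on the minus strand, Hspa1b at chr17:34959309-34959368 on the minus strand, Hspb1 at chr5:135887784-135887843, Hspe1 at chr1:55088038-55088097, Dnajb6 at chr5:29735833-29735892 and Chordc1 at chr9:18292259-18292288, these 4 on the plus strand, and Hsph1 at chr5:149636351-149636380 on the minus strand.
Hspa1a: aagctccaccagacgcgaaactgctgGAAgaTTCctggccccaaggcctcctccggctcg
Hspa1b: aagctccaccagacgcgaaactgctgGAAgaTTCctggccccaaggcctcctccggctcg
Hspb1: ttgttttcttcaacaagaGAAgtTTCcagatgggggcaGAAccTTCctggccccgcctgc
Hspe1: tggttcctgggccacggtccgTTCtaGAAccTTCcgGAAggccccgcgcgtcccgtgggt
Dnajb6: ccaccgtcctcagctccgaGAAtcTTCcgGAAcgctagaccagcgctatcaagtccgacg
Hsph1: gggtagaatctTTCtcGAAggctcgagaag
Chordc1: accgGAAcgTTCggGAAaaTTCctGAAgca
The Hspa1a and Hspa1b stretches are identical over all 60 bases, and their whole windows match at 296 of 300 positions. The Hsph1 stretch shown holds a match of 2 units only, and the run of 3 units of Hsph1 lies after both of its listed starts. The Chordc1 run begins 4 bases before the transcription start and extends past it. Hspd1 and Hspe1 lie head to head, and windows of theirs share 285 bases on opposite strands, so the run of units shown for Hspe1 is in front of both genes for 1 of the 2 Hspd1 starts in the table, and the window of the other Hspd1 start holds no match. Hspb1, Hspa1a and Hspa1b were among the members with the largest falls after CrOE EVs, and their windows hold no run of 3 units. Hspd1, Hspe1 and Chordc1, which have such runs, were higher there. Of the others with such runs, Dnajb6 was not called after CrOE EVs, and Hsph1 was lower after all 3 kinds of EV. Among the remaining members with a match, Cct2, Cct5, Dnaja1, Fkbp4 and Hspb8 rose after CrOE EVs, and Bag3 and Dnajb4 fell. Members whose windows held no match also moved in both directions. Of these, Dnaja3 and Hsf2 rose by at least 2-fold after CrOE EVs, while Hspa2, Stip1 and Trap1 fell. Whether the motifs bear on these changes was not tested.

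Exposure to shCon or shCr EVs changed many of these genes by small amounts, with more members lower than higher. After shCon EVs, 5 members rose and 19 fell against untreated cells, which is 64.9% of the members against 38.1% of all genes tested (18% higher and 20.2% lower). After shCr EVs, 6 rose and 15 fell, 56.8% of the members against 37.3% of all genes (18.4% higher and 18.8% lower). The median log2 fold change of the 37 was -0.13 in both comparisons, beside 0.01 and 0.02 over all genes, and no member changed by 2-fold, a size called for 6.04% and 6.28% of all genes. Both comparisons use the same untreated libraries. Differences were called with edgeR's quasi-likelihood test at a Benjamini-Hochberg adjusted p below 0.05. Of the 8171 genes at or above the level of the lowest member, 43.8% were called after shCon EVs and 42.8% after shCr EVs. Changes of at least 2-fold were called for only 191 and 192 of these 8171, so large changes were rare at this level. Without shCr replicate 1, 7 members rose and 22 fell after shCr EVs, without untreated replicate 1 only 3 rose, and a model of only those groups gave 2 rises and 9 falls. Without untreated replicate 3, 12 members fell after shCon EVs.

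CrOE EVs changed nearly all of the 37, in both directions. Against untreated cells 24 members rose and 11 fell, and Dnajb1 and Dnajb6 did not pass the test. That is 94.6% of the members, in a comparison in which 73.7% of all genes tested (36.7% higher and 37% lower), and 80.2% of genes at or above the level of the lowest member, were called. The median of the members was 0.30, beside 0.01 over all genes. Changes of at least 2-fold were called for 8 members, 4 higher (Hspa9, Hspd1, Dnaja3 and Hsf2) and 4 lower (Cryab, Hspb1, Hspa1a and Hspa1b). Over all genes, 29.7% were called at that size. Of the 8171 genes at or above the level of the lowest member, 1850 were. Against shCon EVs, 27 members rose and 7 fell after CrOE EVs, with 72.6% of all genes called (36.5% higher and 36.1% lower). There 7 members changed by at least 2-fold, against 27.2% of all genes and 1673 of those 8171 genes. The 4 groups hold no separate control made for the overexpressing donors. CRIPTO overexpression and other differences between the CrOE and shCon donors therefore cannot be told apart. Against shCr EVs, 25 rose and 8 fell, with 73.9% of all genes called (36.9% higher and 37% lower). There 8 members changed by at least 2-fold, against 29.6% of all genes and 1871 of those 8171 genes. The members' medians in these comparisons were 0.50 and 0.46.

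**Figure D1:**
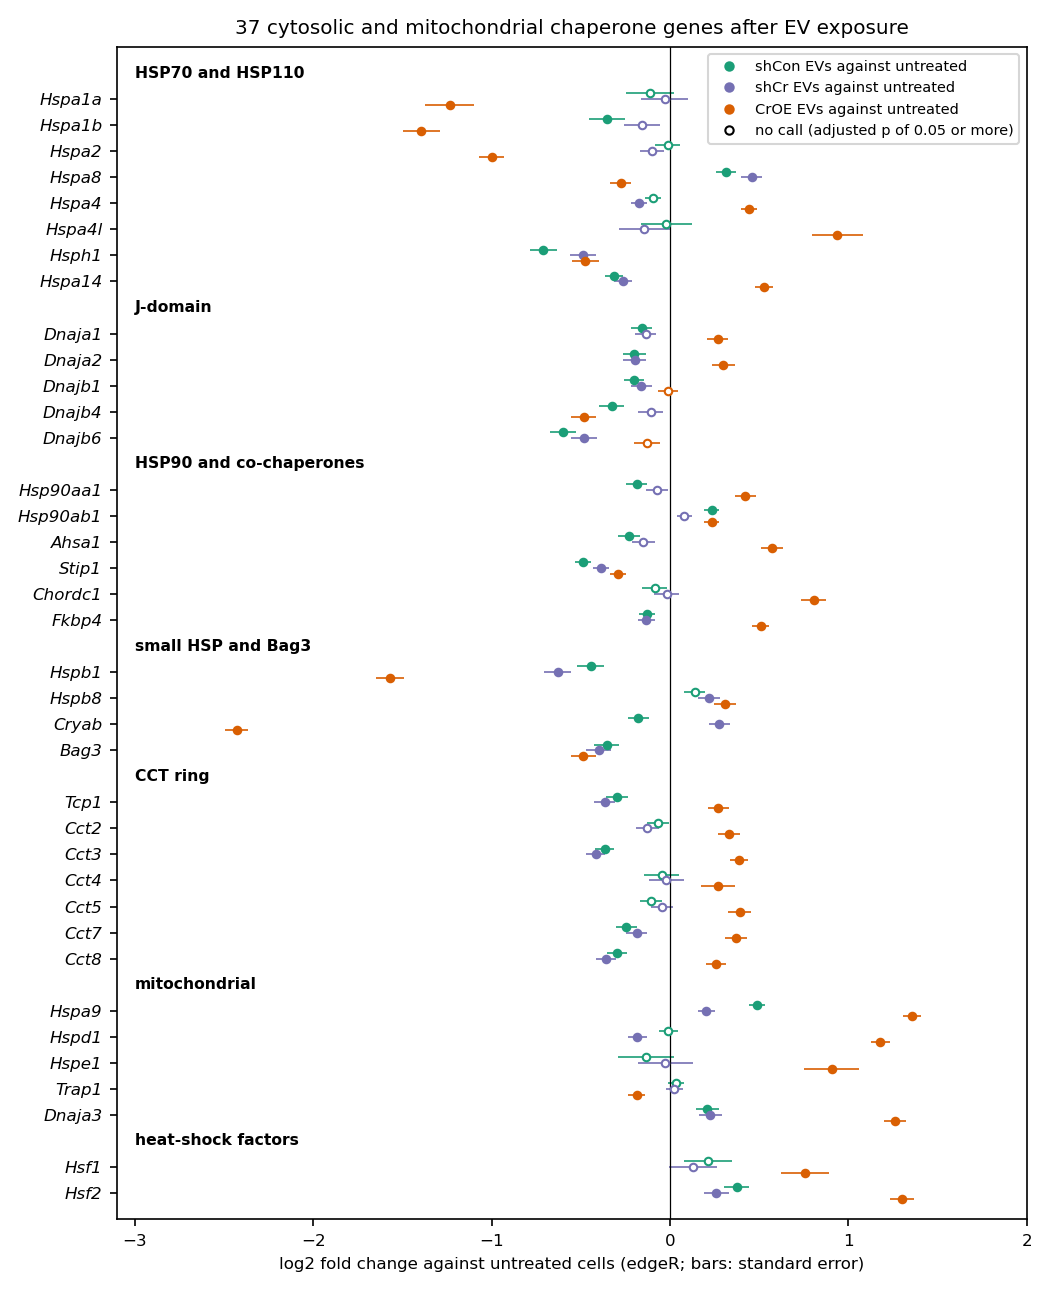
Log2 fold change of each of the 37 members against untreated cells (x axis), by functional group, for shCon, shCr and CrOE EVs. Bars are standard errors from the edgeR fit, filled points passed the test and open points did not. Mitochondrial members lie to the right after CrOE EVs, apart from Trap1 at -0.19, and so do Hsf1 and Hsf2. Cryab, Hspb1, Hspa1a and Hspa1b lie far to the left, down to -2.43.

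The inducible HSP70 genes were lower after CrOE EVs. Hspa1a and Hspa1b encode near-identical stress-inducible HSP70 proteins. Hspa1b stood at 72.3, 69.0 and 81.3 CPM in untreated cells, at 56.5, 57.8 and 60.2 after shCon EVs, at 60.9, 67.7 and 71.0 after shCr EVs, and at 28.3, 23.8 and 32.6 after CrOE EVs. The CrOE libraries lay below all the others, and the shCon libraries lay below all untreated ones. Hspa1b fell by 1.39 on the log2 scale after CrOE EVs against untreated cells (SE 0.103, edgeR adjusted p = 5.30e-08) and by 0.35 after shCon EVs (SE 0.10, adjusted p = 0.0147). The shCon call was lost without untreated replicate 3 or without shCon replicate 1, with adjusted p up to 0.0719.

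Hspa1a was at 25, 24.1 and 30.6 CPM in untreated cells, at 22.7, 24.2 and 26.9 after shCon EVs, at 21.2, 25.8 and 31 after shCr EVs, and at 11.6, 10.1 and 12.2 after CrOE EVs. Only the CrOE libraries stood apart, since the others overlapped. Its log2 fold change against untreated cells was -1.23 after CrOE EVs (SE 0.139, edgeR adjusted p = 3.28e-06), and no call was made after shCon or shCr EVs. In the annotation, 65.4% of the 31-base stretches of Hspa1a and 68.0% of those of Hspa1b occur in another gene, mostly in each other, so the division of counts between the pair is uncertain. The sum of the pair was 93.1 to 112 CPM in untreated cells and 33.9 to 44.8 after CrOE EVs, so the fall does not rest on that division. Hspa2, a further HSP70 gene best known for its role in the testis, fell by 1.00 after CrOE EVs (adjusted p = 3.52e-08) and was not called after shCon or shCr EVs.

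Hspa8, the constitutive HSP70 of the cytosol, moved in opposite directions. It was at 1216, 1183 and 1158 CPM in untreated cells, at 1439, 1464 and 1520 after shCon EVs, at 1787, 1553 and 1548 after shCr EVs, and at 961, 991 and 988 after CrOE EVs. Every shCon and shCr library lay above the untreated ones, and every CrOE library lay below them. Against untreated cells the log2 fold changes of Hspa8 were 0.31 with shCon, 0.46 with shCr and -0.28 with CrOE EVs (SE 0.058 each), with edgeR adjusted p-values of 0.000996, 4.88e-05 and 0.000846. Between CrOE and shCon EVs it fell by 0.59 (adjusted p = 1.03e-06). Stretches shared with other genes make up 43.5% of Hspa8, mostly with the locus Gm15459, so part of its counts may be divided between them.

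The nucleotide exchange factors of the HSP110 family did not move together. Hsph1, which encodes HSP105, was at 191, 163 and 208 CPM in untreated cells, at 113, 116 and 114 after shCon EVs, at 140, 127 and 133 after shCr EVs, and at 132, 135 and 137 after CrOE EVs. All 9 libraries exposed to EVs lay below the untreated ones. The falls were 0.71 after shCon EVs (SE 0.075, edgeR adjusted p = 1.17e-05), 0.49 after shCr EVs (adjusted p = 0.000226) and 0.47 after CrOE EVs (adjusted p = 7.74e-05) on the log2 scale. Its relatives Hspa4 and Hspa4l instead rose after CrOE EVs, by 0.44 and 0.94. Hspa4l was not called after shCon or shCr EVs, but without untreated replicate 2 it was called lower after shCr EVs (edgeR adjusted p = 0.00711). Hspa4 fell by 0.17 after shCr EVs, a call lost in a model of only those groups (edgeR adjusted p = 0.0595). Hspa14, an HSP70-like protein that works at the ribosome, fell by 0.31 and 0.26 after shCon and shCr EVs and rose by 0.53 after CrOE EVs.

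**Figure D2:**
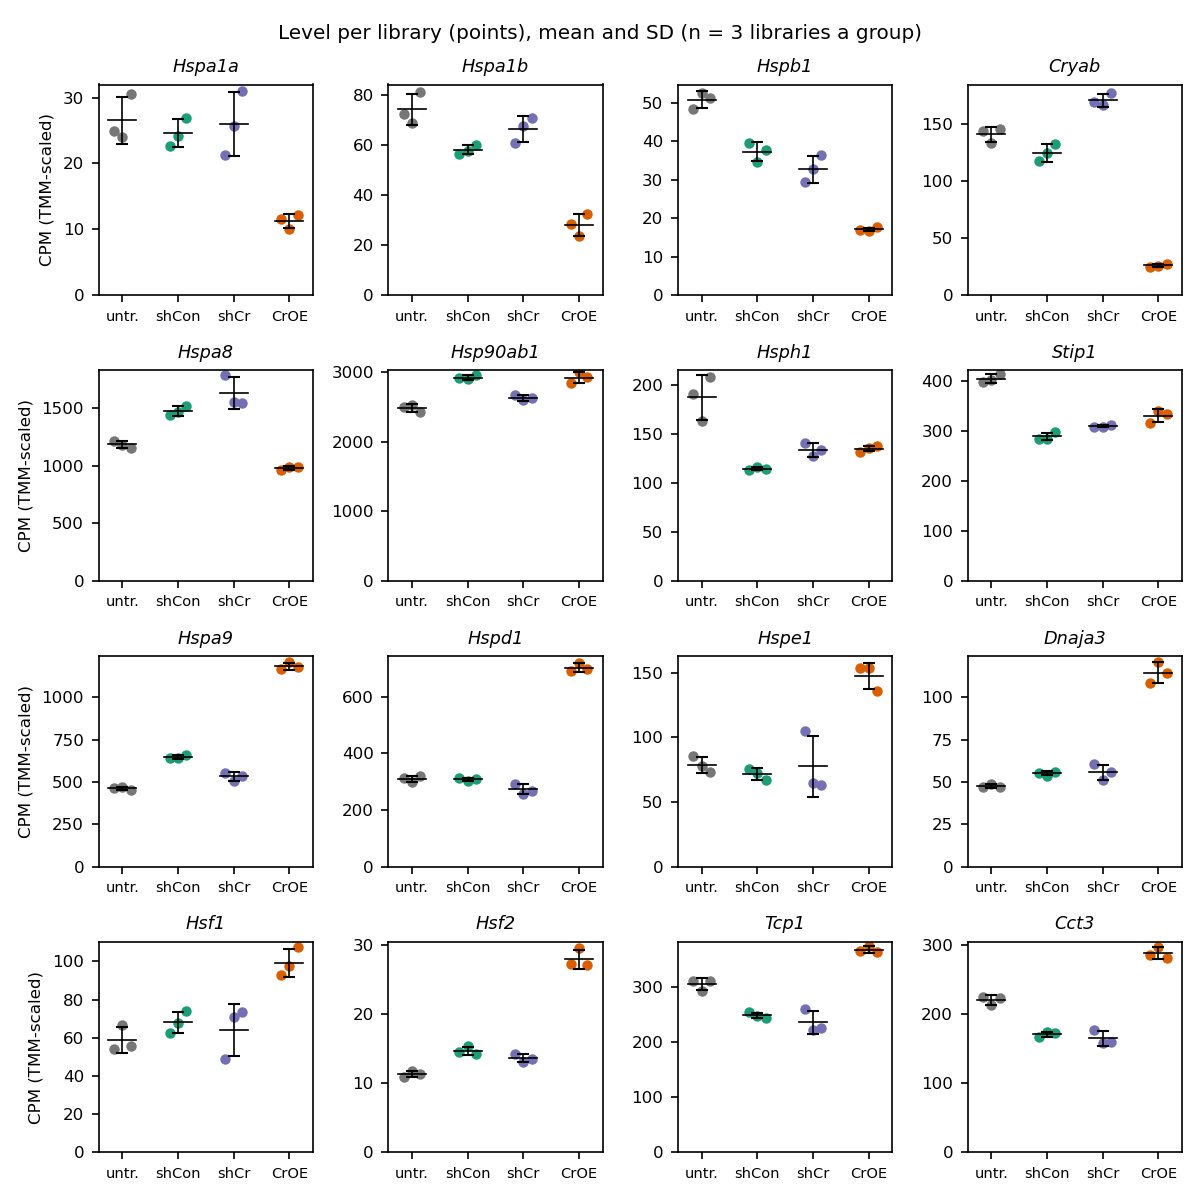
CPM of 16 members in each library (points), with the mean and SD of each group of 3 libraries, on linear axes that start at 0. The CrOE libraries lie below every other library for Hspa1a, Hspa1b, Hspb1, Cryab and Hspa8, and above every other library for Hspa9, Hspd1, Hspe1, Dnaja3, Hsf1, Hsf2, Tcp1 and Cct3.

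The cytosolic J-domain genes were lower after shCon EVs in all 5 cases, and 3 of the 5, Dnaja2, Dnajb1 and Dnajb6, were lower after shCr EVs, beside 20.2% and 18.8% of all genes. Without shCr replicate 1, Dnaja1 was lower as well, by 0.21 (edgeR adjusted p = 0.00150). The shCr calls of Dnaja2 and Dnajb1 were lost without untreated replicate 1 or 3 or without shCr replicate 2 or 3, and that of Dnajb1 also without untreated replicate 2, with edgeR adjusted p up to 0.125 and 0.155. After CrOE EVs 2 rose, 1 fell and 2 were not called, a share below the 73.7% of all genes called. The largest change was in Dnajb6, whose protein suppresses aggregation of polyglutamine and other clients. It was at 257, 210 and 253 CPM in untreated cells, at 159, 157 and 161 after shCon EVs, at 186, 164 and 166 after shCr EVs, and at 218, 223 and 218 after CrOE EVs. The shCon and shCr libraries lay below all the untreated ones, and the CrOE libraries lay within the untreated range. Dnajb6 fell by 0.60 after shCon EVs (SE 0.073, edgeR adjusted p = 3.92e-05) and by 0.48 after shCr EVs (adjusted p = 0.000196), and its log2 fold change after CrOE EVs was -0.13 (adjusted p = 0.129). The last comparison was called lower without untreated replicate 2, with upper-quartile scaling and with at least 10 counts in every library, with adjusted p down to 0.00470. Other genes hold 19.0% of the 31-base stretches of Dnajb6.

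Dnaja1 and Dnaja2, which serve the constitutive HSP70, rose after CrOE EVs by 0.27 and 0.30 and fell after shCon EVs by 0.16 and 0.20. Dnajb1, the classical heat-inducible HSP40, was within 57.4 to 59.0 CPM in untreated cells and 56.2 to 59.99 after CrOE EVs, and it fell by 0.20 after shCon EVs (edgeR adjusted p = 0.0133). Dnajb4 fell by 0.33 after shCon EVs and by 0.48 after CrOE EVs. The small falls of Dnaja1 and Dnaja2 after shCon EVs were lost when single libraries were left out, with adjusted p up to 0.144 for Dnaja1 and 0.0944 for Dnaja2. For Dnaja2 those libraries were any shCon library or untreated replicate 1 or 3, and for Dnaja1 any of the 6 libraries compared.

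In the HSP90 group 5 of 6 members rose after CrOE EVs and 1 fell, beside 36.7% of all genes higher and 37% lower. Hsp90ab1, the constitutive cytosolic HSP90, was at 2502, 2526 and 2420 CPM in untreated cells, at 2908, 2892 and 2957 after shCon EVs, at 2665, 2591 and 2621 after shCr EVs, and at 2843, 2996 and 2921 after CrOE EVs. The shCr libraries lay between the untreated libraries and those of the other EV groups. It rose by 0.23 after shCon EVs (SE 0.042, edgeR adjusted p = 0.00078) and by 0.23 after CrOE EVs (adjusted p = 0.000219), and its change after shCr EVs was 0.08 (adjusted p = 0.154). Between CrOE and shCon EVs the log2 fold change of Hsp90ab1 was 0.00 (SE 0.042).

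Hsp90aa1, the inducible form, rose by 0.42 after CrOE EVs (edgeR adjusted p = 3.13e-05) and fell by 0.19 after shCon EVs. That fall was lost without any single shCon library and without untreated replicate 1 or 3, with adjusted p up to 0.0880. It shares 51.4% of its 31-base stretches with other genes, mostly the locus Gm12346. Without shCr replicate 1, Hsp90aa1 fell by 0.14 and Ahsa1 by 0.21 after shCr EVs (adjusted p = 0.0229 and 0.00893). Co-chaperones that rose after CrOE EVs were Ahsa1, the activator of the HSP90 ATPase (0.57), Chordc1, also called morgana (0.81), and Fkbp4, an immunophilin of steroid receptor complexes (0.51). Each of these was also higher than after shCon EVs, by 0.80, 0.89 and 0.64.

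Stip1 encodes HOP, the adaptor that joins HSP70 to HSP90, and was the member that fell. It was at 398, 402 and 415 CPM in untreated cells, at 285, 285 and 298 after shCon EVs, at 308, 309 and 313 after shCr EVs, and at 316, 341 and 335 after CrOE EVs. All 9 libraries exposed to EVs lay below the untreated ones. The falls were 0.49, 0.39 and 0.29 after shCon, shCr and CrOE EVs (SE 0.046 each), with edgeR adjusted p-values of 4.26e-06, 2.76e-05 and 7.08e-05.

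The small heat-shock proteins held the largest fall of the list. Cryab, αB-crystallin, binds unfolding proteins and desmin filaments. It was at 143, 133 and 145 CPM in untreated cells, at 117, 124 and 132 after shCon EVs, at 169, 166 and 177 after shCr EVs, and at 24.7, 25.9 and 27.6 after CrOE EVs. None of the 4 groups overlapped another, with the order shCr, untreated, shCon and CrOE from high to low. Cryab fell by 2.43 after CrOE EVs against untreated cells (SE 0.065, edgeR adjusted p = 2.97e-12), to 0.186 of the untreated level. It rose by 0.28 after shCr EVs (adjusted p = 0.00274), and its fall of 0.18 after shCon EVs (adjusted p = 0.0351) was lost without untreated replicate 1 or 3 or without shCon replicate 1 or 2, with adjusted p up to 0.145. The exons of Cryab overlap those of Hspb2 on the other strand by 252 bases, and whether counting used the strand is not given in the sources used here. Hspb2 held 507 counts over all libraries, beside 41308 for Cryab.

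Hspb1 encodes HSP27, called HSP25 in the mouse. It was at 48.4, 52.6 and 51.3 CPM in untreated cells, at 39.4, 34.7 and 37.7 after shCon EVs, at 29.3, 32.7 and 36.3 after shCr EVs, and at 17, 16.7 and 17.6 after CrOE EVs. Every exposed library lay below the untreated ones, and the CrOE libraries lay below the rest. Hspb1 fell by 0.45 after shCon EVs (SE 0.077, edgeR adjusted p = 0.000606), by 0.63 after shCr EVs (adjusted p = 3.55e-05) and by 1.57 after CrOE EVs (SE 0.080, adjusted p = 1.26e-09). The pseudogene Hsp25-ps1 shares 52.3% of its 31-base stretches, so some of its reads may have been assigned elsewhere.

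Hspb8 and Bag3 form a complex that sends misfolded proteins to autophagy, and they moved apart. Bag3, the scaffold, fell by 0.35 with shCon, 0.40 with shCr and 0.49 with CrOE EVs, the last with an edgeR adjusted p of 3.59e-05. Hspb8 rose by 0.31 after CrOE EVs (adjusted p = 0.000515) and by 0.22 after shCr EVs (adjusted p = 0.0136), and after shCon EVs its log2 fold change was 0.14 (adjusted p = 0.0973). The shCr call of Hspb8 was lost without untreated replicate 1 or 3.

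All 7 measured subunits of the CCT ring rose after CrOE EVs, against untreated cells by 0.26 (Cct8) to 0.39 (Cct3 and Cct5) and against shCon EVs by 0.32 (Cct4) to 0.75 (Cct3). The background for a rise is 36.7% of all genes against untreated cells and 36.5% against shCon EVs. After shCon EVs 4 of the 7 fell, Tcp1, Cct3, Cct7 and Cct8, by 0.24 to 0.36, and after shCr EVs these fell by 0.19 to 0.42, in comparisons that share the untreated libraries. The background for a fall is 20.2% of all genes with shCon and 18.8% with shCr EVs. Without shCr replicate 1, Cct2, Cct4 and Cct5 also fell after shCr EVs, by 0.21, 0.18 and 0.13 (edgeR adjusted p = 0.00109, 0.0211 and 0.0395), so that 7 of 7 were lower. The shCr call of Cct7 was lost without untreated replicate 1 or without shCr replicate 2 or 3, with an edgeR adjusted p up to 0.114. Cct3 was at 226, 213 and 224 CPM in untreated cells, at 168, 174 and 173 after shCon EVs, at 178, 159 and 160 after shCr EVs, and at 287, 298 and 282 after CrOE EVs. The CrOE libraries were the highest and the untreated ones next, and the shCon and shCr libraries overlapped below them. The called rise with the largest standard error was that of Cct4, 0.27 after CrOE EVs against untreated cells (SE 0.097, edgeR adjusted p = 0.0235), and it was lost without untreated replicate 2 or 3 or CrOE replicate 1 or 2, with adjusted p up to 0.0748. The subunit gene Cct6a is not a member. It was on a list of partners used below but was not among the genes that could be tested.

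Cct2 stood far above its partners although the subunits are built into the ring in equal numbers. Per kilobase of transcript, its level was 19.1 to 22 times the median of the other 6 subunits in every library, while those 6 differed among themselves by 1.64-fold to 2.12-fold. At 2246 CPM per kilobase in untreated cells (SD 98.5, n = 3), Cct2 ranked above every other member, followed by Hsp90ab1 at 985 (SD 22) and Hspa8 at 495 (SD 12.2). That order held in each group. Over the mean of the 12 libraries it ranked 4 of 17716 genes per kilobase. Its counts were 4564, 4187 and 4447 CPM in untreated cells, 4241, 4194 and 4184 after shCon EVs, 4458, 3872 and 3766 after shCr EVs, and 5443, 5726 and 5437 after CrOE EVs. The CrOE libraries lay above all the others, which overlapped, and the rise against untreated cells was 0.33 (SE 0.062, edgeR adjusted p = 0.000327).

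The protein-coding genes around Cct2 in the RefSeq order had mixed levels. Frs2 and Yeats4, the next protein-coding genes on that side, had mean levels of 166 and 612 CPM per kilobase over the 12 libraries. Mdm2, 8 places away, had 1298 and ranked 17 of 17716 genes, and Mdm1, 12 places away, had 265 and ranked 199. Between Mdm2 and Mdm1, Slc35e3, Nup107 and Rap1b had 124, 129 and 104 CPM per kilobase. Between Yeats4 and Mdm2 the levels were lower, with Lyz2 at 51.8, Cpsf6 at 23.7, Cpm at 1.03, 9530003J23Rik at 0.341 and Lyz1 at 0.296. The genes that follow Mdm1 were low, Ifng being the highest of 3 at 0.146. On the far side Lrrc10 had 0.111 and Best3 had 2.10, followed by Rab3ip at 107. As background, Mdm2 was first isolated from amplified DNA carried on double minute chromosomes of a 3T3 line. DNA was not measured in these libraries, and copy number was not tested.

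**Figure D3:**
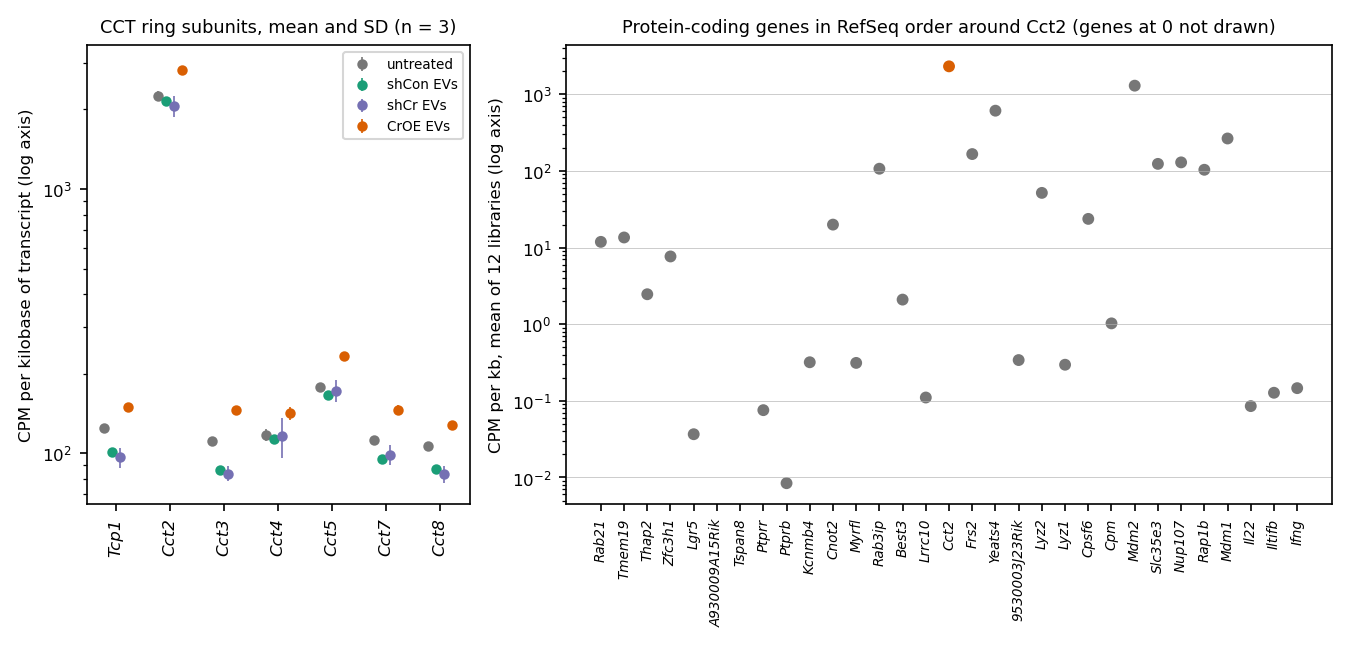
Left, mean level and SD (n = 3) of the 7 CCT subunits in CPM per kilobase of transcript, on a log axis, in the 4 groups. Right, the mean level over 12 libraries of the protein-coding genes up to 15 places either side of Cct2 (orange) in RefSeq order, on a log axis. Cct2 lies far above the other subunits in every group, and the genes around it range from Mdm2 at 1298 to genes under 1 CPM per kilobase.

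Of the 5 mitochondrial members 4 rose after CrOE EVs and 1 fell, with a median log2 fold change of 1.18, beside 36.7% of all genes higher and 37% lower. Hspa9, the mitochondrial HSP70 also called mortalin, draws proteins through the inner membrane and folds them. It was at 462, 472 and 452 CPM in untreated cells, at 640, 643 and 660 after shCon EVs, at 554, 505 and 537 after shCr EVs, and at 1165, 1205 and 1177 after CrOE EVs. None of the 4 groups overlapped, and the order from low to high was untreated, shCr, shCon and CrOE. Hspa9 rose by 0.49 after shCon EVs (SE 0.047, edgeR adjusted p = 5.46e-06), by 0.20 after shCr EVs (adjusted p = 0.00426, and 0.0519 in a model of only those groups) and by 1.36 after CrOE EVs (SE 0.048, adjusted p = 3.69e-11), the last a 2.56-fold rise.

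Hspd1, which encodes the HSP60 chamber, was at 313, 299 and 319 CPM in untreated cells, at 313, 302 and 310 after shCon EVs, at 293, 257 and 269 after shCr EVs, and at 691, 721 and 697 after CrOE EVs. The CrOE libraries lay far above all the others, which overlapped in part. Its rise was 1.18 against untreated cells (SE 0.055, edgeR adjusted p = 5.05e-10) and 1.19 against shCon EVs. After shCr EVs it fell by 0.18 (adjusted p = 0.0178), a call lost without untreated replicate 3 or without shCr replicate 2 or 3. Hspd1 shares 50.1% of its 31-base stretches with other genes, mostly the pseudogene Hspd1-ps3, and its exons overlap those of Hspe1 by 112 bases on the other strand.

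Hspe1, the HSP10 lid of that chamber, was at 85.4, 77.7 and 73.3 CPM in untreated cells, at 75.9, 72.3 and 67.1 after shCon EVs, at 105, 64.8 and 63.2 after shCr EVs, and at 154, 153 and 136 after CrOE EVs. The CrOE libraries lay above all the others, and shCr replicate 1 stood apart from the other shCr libraries. The rise after CrOE EVs against untreated cells was 0.91 (SE 0.155, edgeR adjusted p = 0.00015). After shCr EVs Hspe1 was not called, with a log2 fold change of -0.03, and without shCr replicate 1 it fell by 0.30 (adjusted p = 0.00507). Dnaja3, the mitochondrial J-domain protein, rose by 1.26 after CrOE EVs (adjusted p = 1.16e-09), by 0.21 after shCon EVs and by 0.23 after shCr EVs. Those smaller calls were lost without untreated replicate 1 or 3, and the shCon call also without shCon replicate 1 or 3. The exons of Dnaja3 overlap those of Vasn on the same strand by 160 bases. Trap1, the mitochondrial HSP90, went the other way, with a fall of 0.19 after CrOE EVs (adjusted p = 0.00286) and no call after shCon or shCr EVs.

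Both heat-shock factor genes were higher after CrOE EVs. Hsf1, whose protein is the main regulator of the heat-shock response and is controlled largely after translation, was at 54.1, 66.5 and 55.9 CPM in untreated cells, at 62.6, 67.9 and 73.8 after shCon EVs, at 48.7, 70.6 and 73.2 after shCr EVs, and at 92.6, 97.7 and 107 after CrOE EVs. The CrOE libraries lay above the others, which overlapped. The rise was 0.75 against untreated cells (SE 0.134, edgeR adjusted p = 0.000216) and 0.54 against shCon EVs (adjusted p = 0.00261). After shCr EVs Hsf1 was not called, with a log2 fold change of 0.13, and without shCr replicate 1 it rose by 0.29 (adjusted p = 0.0237). Hsf2, which encodes a related factor, was at 11, 11.8 and 11.4 CPM in untreated cells, at 14.5, 15.4 and 14.3 after shCon EVs, at 14.3, 13.1 and 13.5 after shCr EVs, and at 27.2, 29.6 and 27.2 after CrOE EVs. Every exposed library was higher than the untreated ones, and the CrOE libraries were the highest. Hsf2 rose by 0.37 after shCon EVs (adjusted p = 0.000939), by 0.26 after shCr EVs (adjusted p = 0.0094) and by 1.30 after CrOE EVs (SE 0.067, adjusted p = 1.43e-09). The shCr call was lost without untreated replicate 1, with an adjusted p of 0.0595.

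The direct comparison of shCr with shCon EVs, which asks what CRIPTO knockdown in the donor cells changed, called 3 of the 37 members. That is 8.11% of the members, close to the 8.73% of all genes called (5.22% higher and 3.51% lower). None of the 3 changed by 2-fold, a size called for 0.756% of all genes. Among the 8171 genes at or above the level of the lowest member, 13 were called at that size. Cryab rose by 0.45 (SE 0.060, edgeR adjusted p = 0.000518), Hspa9 fell by 0.28 (SE 0.047, adjusted p = 0.00251) and Hsp90ab1 fell by 0.15 (SE 0.042, adjusted p = 0.0406). The libraries of the pair of groups did not overlap for any of these 3 genes. Most members with such a separation were not called, and its share over all genes was not computed. The separation is therefore no support for the 3 calls. The other 34 members had log2 fold changes from -0.18 (Hspb1) to 0.22 (Hsph1 and Dnajb4), with standard errors from 0.045 (Hspa4) to 0.155 (Hspe1). For none of these 34 did the estimate plus or minus 2 standard errors reach a 2-fold change, while smaller changes remain possible. The Hsp90ab1 call was lost without any single shCon library, without shCr replicate 2 or 3, with a replicate block, with no filter on low counts and in a model of only those groups, with adjusted p up to 0.136. Without shCr replicate 1, falls of Hspd1 (0.23, adjusted p = 0.00516), Tcp1 (0.15, adjusted p = 0.0405) and Cct2 (0.14, adjusted p = 0.0431) were called, which made 6 calls. The fall of Hspd1 was also called with upper-quartile scaling, with library totals only, with at least 10 counts in every library and with DESeq2.

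Genes around these chaperones were taken from lists of their partners, and 2 are named from each list. After CrOE EVs 73.7% of all genes were called, 36.7% higher and 37% lower, and the counts below are to be read against that. Of 9 other HSP90 co-chaperones, 4 rose and 3 fell against untreated cells (77.8% called). Ppid, cyclophilin 40, rose by 1.28 (edgeR adjusted p = 1.98e-09), from 42.4 to 48.9 CPM in untreated cells to 105 to 117, and Ptges3, the co-chaperone p23, rose by 0.74. Of 10 genes on a list of HSP70 co-factors, 5 rose and 3 fell (80% called). That list includes Hspa12a and Hspa12b, which are distant HSP70 relatives and not co-factors. The nucleotide exchange factor Bag5 rose by 0.59 and the ubiquitin ligase Stub1, or CHIP, by 0.20. Of 8 other J-domain genes tested, 5 rose and 2 fell (87.5% called). Dnajc2, which works with Hspa14 at the ribosome, rose by 1.57 (adjusted p = 2.22e-10), and Dnajb2 fell by 0.17 after CrOE EVs but rose by 0.46 and 0.55 after shCon and shCr EVs.

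A list of other small heat-shock proteins, other heat-shock factors and the factor-binding protein Hsbp1 had 4 genes tested, and all 4 fell after CrOE EVs, beside 37% of all genes. Hspb6, or HSP20, was at 25.3, 26.3 and 27.7 CPM in untreated cells, at 14.4, 14.9 and 15.6 after shCon EVs, at 10.4, 13.9 and 13.0 after shCr EVs, and at 7.58, 7.68 and 8.99 after CrOE EVs. No library of any exposed group reached the untreated range. Hspb6 fell by 0.82, 1.09 and 1.71 after shCon, shCr and CrOE EVs, with edgeR adjusted p-values of 3.77e-05, 3.24e-06 and 7.36e-09. Hsbp1, which binds the trimers of HSF1, fell by 0.55 after CrOE EVs (adjusted p = 0.000188). Of 7 genes tested among the prefoldin subunits, which pass clients to the CCT ring, and the subunit Cct6b, 1 rose, 2 fell and 4 were not called, and the 42.9% called is below the 73.7% over all genes. Pfdn6 rose by 0.67, and Pfdn5 fell by 0.61.

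Of 12 genes for mitochondrial import motors, folding and proteolysis, 6 rose and 2 fell after CrOE EVs, 66.7% beside 73.7% of all genes. Lonp1, the protease of the mitochondrial matrix, was at 159, 190 and 165 CPM in untreated cells, at 299, 319 and 334 after shCon EVs, at 241, 286 and 302 after shCr EVs, and at 541, 560 and 592 after CrOE EVs. All exposed libraries lay above the untreated ones, and the CrOE libraries lay above the rest. Lonp1 rose by 0.89 after shCon EVs (SE 0.088, edgeR adjusted p = 6.39e-06), by 0.69 after shCr EVs (adjusted p = 4.97e-05) and by 1.72 after CrOE EVs (adjusted p = 1.55e-09). Grpel2, a nucleotide exchange factor of Hspa9, rose by 0.45, 0.50 and 1.31 in the same order. The median of the 12 after CrOE EVs was 0.17, beside 1.18 for the 5 mitochondrial members and 0.01 over all genes.

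ER chaperones gave the largest contrast with the 37 members. All 14 on the list rose by at least 2-fold after CrOE EVs, with a median log2 fold change of 3.41 against untreated cells, while the members' median was 0.30. Over all genes, 29.7% were called at that size. Hsp90b1, the ER form of HSP90, was at 761, 719 and 733 CPM in untreated cells, at 601, 599 and 585 after shCon EVs, at 609, 520 and 539 after shCr EVs, and at 7329, 7766 and 7397 after CrOE EVs. It rose by 3.34 (SE 0.064, edgeR adjusted p = 2.38e-13), 10.2-fold, where the cytosolic Hsp90aa1 and Hsp90ab1 rose by 0.42 and 0.23. Pdia4, an ER disulfide isomerase, rose by 3.59 after CrOE EVs (adjusted p = 1.94e-13) and fell by 0.35 and 0.58 after shCon and shCr EVs.

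Summed over genes, the 36 members other than Cct2 made up between 9198 and 9455 CPM in untreated cells, 9437 and 9635 with shCon EVs, 9028 and 9882 with shCr EVs, and 11199 and 11702 with CrOE EVs. The 14 ER chaperones made up 5091 to 5394, 4377 to 4490, 4054 to 4706 and 39055 to 41183 CPM in the same order. The ER sum was thus 0.564 of the sum of the 36 members in untreated cells (SD 0.00902, n = 3), 0.465 with shCon EVs, 0.457 with shCr EVs and 3.49 with CrOE EVs (SD 0.0438). The 5 mitochondrial members summed to between 987 and 1004 CPM in untreated cells, 1174 and 1192 with shCon EVs, 979 and 1109 with shCr EVs, and 2202 and 2288 with CrOE EVs. The TMM factors of all 12 libraries lay between 0.982 and 1.01, and no scaling tried moved the median of all genes by more than 0.1 on the log2 scale. Each scaling takes totals or most genes to be alike between libraries, so this cannot show a shift shared by most genes.

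**Figure D4:**
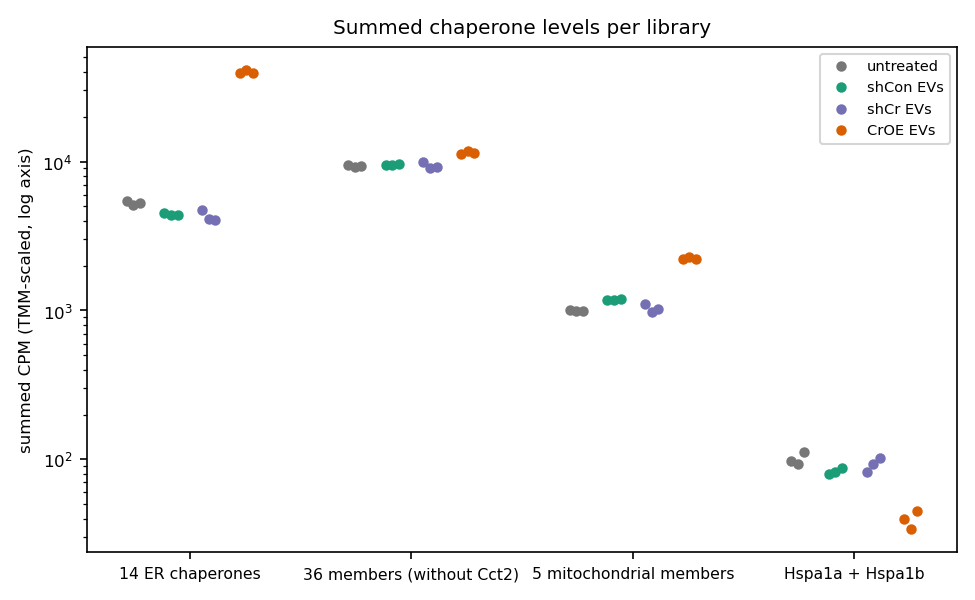
Summed CPM per library (points, log axis) of 14 ER chaperones, of the 36 members without Cct2, of the 5 mitochondrial members and of Hspa1a with Hspa1b. After CrOE EVs the ER sum lies between 39055 and 41183 CPM against at most 5394 in untreated cells, the mitochondrial sum is higher and the Hspa1a with Hspa1b sum is lower than in every other library.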

How the data were processed

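RNA from 12 libraries of 3T3 cells was measured after poly(A) selection and directional library preparation, per the labels' protocols. Estimated counts were deposited by the authors in 1 table, unscaled, with a row for each gene symbol. The submitters' processing notes name featureCounts and the build mm39. The aligner, the annotation and the strand setting are not given in the sources used here. Because 39.8% of the values were not whole, they were taken for expected counts and rounded, although the design had assumed whole counts. Columns were matched to samples by name, and those of the CrOE group by elimination.

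Genes were kept by filterByExpr, libraries were scaled by TMM, and the quasi-likelihood test of edgeR 4.0.16 under R 4.3.3 was run for 6 pairwise comparisons and for any difference among the 4 groups, in one model of 12 libraries (8 residual degrees of freedom), with Benjamini-Hochberg adjustment over 14279 genes. The last of these called 37 of 37 members and 81.3% of all genes. The script was tested on simulated data in which few genes changed, in a single group. Most genes were called in the CrOE comparisons, so that test does not cover the error rate there. The biological coefficient of variation was 8.90%, and the totals of 25960054 to 37774020 counts set the counting precision. Standard errors were derived from the F statistic. Levels are TMM-scaled CPM. Levels per kilobase use the longest protein-coding transcript of GENCODE M21 (GRCm38), and shared 31-base stretches were counted in the same annotation. These serve only as lengths and descriptions, since that build differs from mm39. Promoters are from RefSeq (GRCm38.p6).

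Values in every library were given for Hsf1, Hsf2 and, in each comparison, the 4 called members with the largest change. No pair of libraries of a group agreed within sampling noise (chi-square per degree of freedom 2.68 to 60.6). From each list of partners, the 2 genes called in the most comparisons were named. Per-library values of Hspe1, Cct2 and Cct3 were added after their values were seen. The members, lists and tests were chosen with earlier results of these data known. Alternatives were other scalings and filters, DESeq2 1.42.0, a replicate block, models of only the groups compared, a 2-fold threshold and leaving out each library.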

Additional observations from a re-analysis of the deposited data

How the results depend on the processing

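Of 222 fold changes of members, 150 were called, and none of the calls changed direction under any alternative run. Outside the 2-fold threshold, 24 calls were lost and 21 gained in at least 1 alternative, mostly in the comparisons of shCon and shCr EVs with untreated cells (18 lost, 11 gained). Falls after shCr against shCon EVs numbered 1, with that of Hsp90ab1 lost, with no filter on low counts, with a replicate block and in a model of only those groups. In the model of only 2 groups, shCr EVs against untreated cells gave 11 calls (2 higher, 9 lower). At 2-fold there were 0 calls for shCon and shCr EVs against untreated cells and for shCr against shCon EVs, 8 for CrOE EVs against untreated cells (4 higher, 4 lower), 7 against shCon EVs (3 higher, 4 lower) and 8 against shCr EVs (5 higher, 3 lower). The replicate numbers gave no clear pairing of the libraries. In 5 of 18 pairs of libraries with the same number the deviations correlated above 0.1, with r from -0.20 to 0.32. Among pairs with different numbers this held for 7 of 36, with r from -0.36 to 0.35. A replicate block gave 23, 21 and 35 calls for shCon, shCr and CrOE EVs against untreated cells, 2 for shCr against shCon EVs, and 35 and 33 for CrOE against shCon and shCr EVs. Leaving out single libraries, shCr against shCon EVs gave 2 to 6 calls (1 to 5 lower, the most without shCr replicate 1). The range was 15 to 29 for shCr EVs against untreated cells (3 to 7 higher, the fewest without untreated replicate 1, and 10 to 22 lower), 16 to 22 for shCon EVs (12 to 17 lower, the fewest without untreated replicate 3) and 34 to 35 for CrOE EVs. Small changes, near 0.2 on the log2 scale, are at the limit of 3 libraries a group.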
